A study of Mus musculus with 3 samples.

Results

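The cells described here were the stromal cells of the mouse testis, picked out of unfiltered single-cell libraries by the transcripts they carried. A barcode was kept when it held at least 1000 unique molecular identifiers (UMIs, each counting 1 captured transcript), over 500 genes and under 10% mitochondrial UMIs. A kept barcode was a member when Dcn, Igfbp6, Col1a2, Col3a1, Mgp, Acta2 and Myh11 together gave at least 3 UMIs and 0.1% of its UMIs, and when 7 macrophage genes (C1qa, C1qb, C1qc, Csf1r, Tyrobp, Fcer1g and Adgre1) gave no more UMIs than that sum. This gate found 105 members among 17580 kept barcodes, or 0.597% (95% interval 0.489% to 0.723%). There were 22 among 6232 in WT (0.353%, 0.221% to 0.534%), 53 among 8214 in KO (0.645%, 0.484% to 0.843%) and 30 among 3134 in KI (0.957%, 0.647% to 1.36%). These shares depend on how many germ cells and small droplets passed the same filters, so they do not count stromal cells per testis. All intervals are exact 95% intervals and cover counting error only.

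The study compared testicular cells of C57BL/6 mice in 3 genotypes: wild type (WT), mice that lack GRTH (GRTH-KO, here KO) and mice that carry a human form of GRTH with an arginine-to-histidine change (GRTH-KI, here KI). GRTH, encoded by Ddx25, is an RNA helicase. The study places its expression in germ cells and Leydig cells of the testis, and states that the KI form lacks the phosphorylated cytoplasmic protein. The labels give 1 mouse of 8 weeks per genotype, whereas the study's methods state that testes of a pair of mice were pooled for each. The tunica was removed, the tissue was dispersed with collagenase and trypsin and strained, and 7000 cells were loaded for each of the 3 libraries. With 1 library per genotype, no difference between genotypes has a replicate, no test across samples was possible, and genotype and library cannot be told apart.

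Stromal cells of the testis lie between the seminiferous tubules and around them. Peritubular myoid cells form a contractile sheath on the tubule wall and, with Sertoli cells, lay down its basement membrane, whereas interstitial fibroblasts make collagens, small proteoglycans and growth factor binding proteins. Both belong to the mesenchymal cells that surround the germ cell niche and respond to Hedgehog and PDGF ligands from the tubule, and some of them serve as progenitors of the steroid-making Leydig cells.

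The WT, KO and KI libraries held 82973909, 91388296 and 73150373 UMIs, and the members gave 42227, 158723 and 113317 of these. Depth ran from 1068 to 3698 UMIs per WT member (median 1825), from 1012 to 20002 per KO member (median 2238) and from 1207 to 9360 per KI member (median 3776.5), against medians of 4490.5, 1766 and 1632.5 in the other kept barcodes. The members were thus shallower than other barcodes in WT and deeper in KO and KI. Mitochondrial UMIs had a median share of 2.05%, 2.71% and 3.25% in members of the 3 genotypes in that order, against 0.0397%, 0.154% and 0.0830% in the other kept barcodes. No member's barcode was a kept barcode of another library, although the libraries shared 16, 9 and 8 kept barcodes pairwise. No doublet caller was run. Ddx25, the targeted gene, gave 4, 0 and 4 UMIs in WT, KO and KI members, and 7353, 18 and 4376 UMIs in the other kept barcodes, so its loss in KO was read from the latter.

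The gate was met almost wholly through its 5 matrix genes. Dcn (decorin, a small proteoglycan that binds collagen), Igfbp6 (an IGF binding protein), Mgp (matrix Gla protein, an inhibitor of calcification) and the collagen chains Col1a2 and Col3a1 together gave 3168 gate UMIs, and the smooth muscle genes Acta2 (alpha actin) and Myh11 (a myosin heavy chain) gave 15. Of the 105 members, 99 had matrix UMIs only, 5 had both kinds and 1 had contractile UMIs only. Acta2 and Myh11, which define myoid cells, were thus absent from most members, and the cells are called gated stromal cells here, by their matrix genes. The member with contractile UMIs only was a KI cell of 1477 UMIs that also held 18 UMIs of Sertoli markers.

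Dcn (chr10:97479609-97518143, GRCm38) gave 151 UMIs in 21 of 22 WT members, 619 in 48 of 53 KO members and 719 in 28 of 30 KI members. Each WT member held 0 to 21 Dcn UMIs (median 6), each KO member 0 to 60 (median 7) and each KI member 0 to 86 (median 17), so all 3 libraries had members with few Dcn UMIs and the highest counts were in KO and KI. Igfbp6 (chr15:102144362-102149511) gave 123, 219 and 241 UMIs in 20, 48 and 27 members. It was found in nearly as many members as Dcn. Mgp (chr6:136872435-136875823) gave 81, 214 and 161 UMIs, Col1a2 (chr6:4504814-4541544) 33, 145 and 172, and Col3a1 (chr1:45311538-45349706) 16, 104 and 170. All 5 matrix genes were present in 49 members, and at least 3 of them in 99. Acta2 (chr19:34241090-34255590) gave no UMI in WT members, 1 UMI in 1 KO member and 12 in 4 KI members, and Myh11 (chr16:14194535-14291372) gave 0, 1 and 1.

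**Figure D1:**
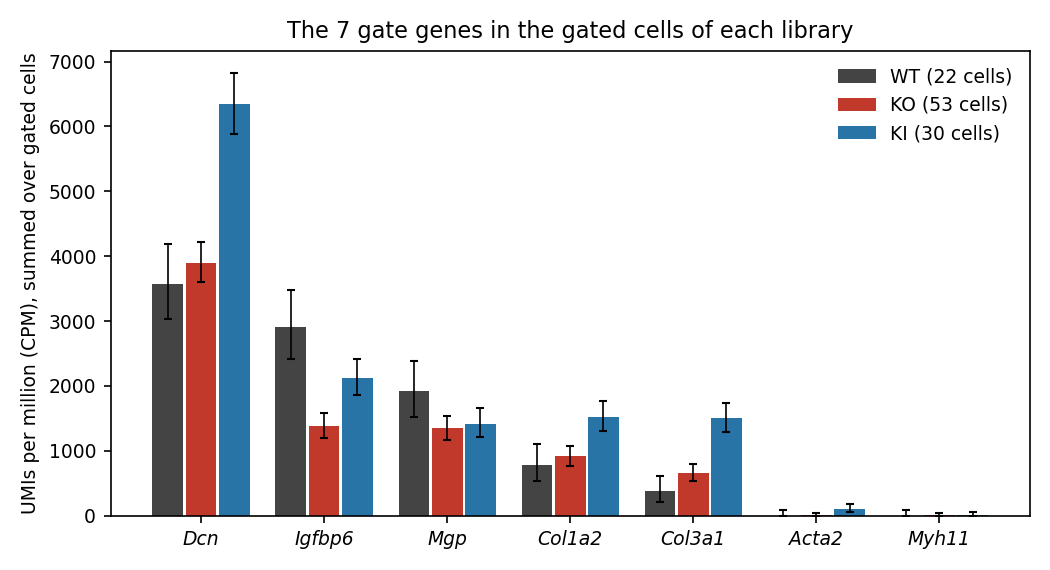
Level of the 7 gate genes in CPM (UMIs per 1000000 UMIs), summed over the gated cells of WT, KO and KI; bars start at 0 and error bars are exact Poisson 95% intervals. Dcn stood at 3576, 3900 and 6345 CPM, whereas Acta2 stood at 0, 6.30 and 106 CPM.

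These counts chose the members and are given as a description. WT, KO and KI members held the summed gate genes at 9567, 8209 and 13025 CPM, against 2.98, 5.70 and 5.80 CPM in the other kept barcodes and 24.4, 37.9 and 37.9 CPM in barcodes under 100 UMIs, which hold free RNA of the suspension. At the threshold, 3 members, 1 in each library, had 3 gate UMIs, while 88 had at least 10. Just outside, 36 kept barcodes had at least 3 gate UMIs but did not pass, with at most 19 gate UMIs, and 9 of them held more macrophage UMIs than gate UMIs. Their highest gate share was 0.0919%, whereas the lowest share of a member was 0.128%. A further 36 barcodes had 2 gate UMIs, and 97.1% of the other kept barcodes had none.

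Detection was compared after thinning each cell to 1000 UMIs, since depth differed between the libraries. No kept barcode was too shallow for this. At that depth a UMI of Dcn was found in 81.8% of WT members (59.7% to 94.8%), 79.2% of KO (65.9% to 89.2%) and 83.3% of KI (65.3% to 94.4%), against 95.5%, 90.6% and 93.3% unthinned. In the other kept barcodes the thinned share was 0.0966%, 0.135% and 0.0966%, a gap that the gate itself sets, since Dcn is one of its genes. Acta2 was found in 0 of 22 WT members, 0 of 53 KO and 3 of 30 KI (10.0%, 2.11% to 26.5%) after thinning, beside 0.0805%, 0.221% and 0.451% of the other barcodes. The intervals of the WT and KO shares of 0 reach 15.4% and 6.72%.

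Beyond the gate, 1906 of 27178 detected genes (7.01%) were at least 4-fold higher in members than in the other kept barcodes of every library, and 1343 (4.94%) at least 4-fold lower, with 1 CPM added to both sides. Among the 2323 genes with at least 30 UMIs in members, 748 (32.2%) were that much higher. These cells were chosen by their transcripts and the other barcodes are mostly germ cells, so the counts describe the gate and are no test.

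The genes that stood out most, outside the gate and among those with at least 30 UMIs and 10 members with a UMI, included regulators of matrix turnover, retinoic acid and transcription. Adamts5 (chr16:85856173-85901828), a protease that cleaves proteoglycans, had the largest pooled fold of these with 1 CPM added, 1138, with 90, 185 and 164 UMIs in WT, KO and KI members and 88 members positive. Cyp26b1 (chr6:84571414-84593908), which breaks down retinoic acid, came next at 740-fold with 51, 88 and 145 UMIs in 63 members. Fhl2 (chr1:43123074-43196984), a LIM-domain cofactor of transcription, followed at 728-fold with 60, 110 and 199 UMIs in 76 members. Ltbp4, which binds latent TGF-beta in the matrix, was 521-fold higher and present in 86 members. Nhs, a regulator of the actin cytoskeleton, was 494-fold higher and the kinase Nrk 480-fold. Fgl2, a fibrinogen-like secreted protein, was 477-fold higher and Pdgfra (chr5:75152292-75198215), the alpha receptor for PDGF and a mark of mesenchymal progenitors, 437-fold.

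The next of these leading genes were Bgn (biglycan, 432-fold), Ctgf (a matricellular growth factor, 427-fold), Serping1 (the C1 inhibitor, 407-fold), Ebf1 (a transcription factor of mesenchymal and B cells, 384-fold), Ifitm3 (an antiviral membrane protein, 383-fold) and Gsn (gelsolin, an actin-severing protein, 378-fold). Cd200, a surface glycoprotein, was 372-fold higher, Col1a1, the partner chain of Col1a2, 372-fold, Id3, an inhibitor of basic helix-loop-helix factors, 347-fold, C1qtnf7, a secreted C1q-like protein, 335-fold, and Sparcl1, a matricellular protein, 329-fold. The antisense transcript Gm20629 was 318-fold higher. The strand setting of the counting is not given in the sources used here, so the reads of Gm20629 may not be separable from those of a gene it overlaps. Each of these 20 genes was higher in members of every library, which was a condition of the ranking and not a result.

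Promoter sequences were examined for 3 of these genes, to set beside each other Acta2, which the members nearly lacked, and Fhl2 and Cyp26b1, whose counts varied together from cell to cell as described further on. They are the 250 bases before a transcription start in RefSeq (GRCm38.p6), all on the minus strand and written 5′ to 3′. Capitals mark matches to the CArG box, the element bound by serum response factor, in Fhl2, matches to it with 1 changed base in its core in Acta2, and a TATAAA in Cyp26b1.
Fhl2, chr1:43163962-43164211: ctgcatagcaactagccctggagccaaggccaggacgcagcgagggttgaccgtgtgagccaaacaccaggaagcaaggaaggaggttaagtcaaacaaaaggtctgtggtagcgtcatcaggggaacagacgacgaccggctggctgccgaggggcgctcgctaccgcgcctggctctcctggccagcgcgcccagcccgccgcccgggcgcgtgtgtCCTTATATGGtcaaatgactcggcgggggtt
Acta2, chr19:34255374-34255623: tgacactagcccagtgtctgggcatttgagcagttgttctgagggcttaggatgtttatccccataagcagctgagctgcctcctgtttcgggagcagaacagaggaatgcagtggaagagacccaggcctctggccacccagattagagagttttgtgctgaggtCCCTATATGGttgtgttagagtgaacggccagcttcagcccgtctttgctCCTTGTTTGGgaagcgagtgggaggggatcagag
Cyp26b1, chr6:84593811-84594060: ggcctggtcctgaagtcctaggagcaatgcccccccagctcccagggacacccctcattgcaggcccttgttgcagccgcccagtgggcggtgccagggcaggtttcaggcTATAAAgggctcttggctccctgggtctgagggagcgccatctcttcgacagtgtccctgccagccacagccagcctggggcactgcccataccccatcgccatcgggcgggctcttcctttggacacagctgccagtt

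The motifs were chosen after these sequences had been read, and each was searched on both strands. Of the 7 gate and 20 leading genes, 19 had an entry. The 32851 mouse promoters belong to 27025 genes, and shares are of genes with a match at any listed start. A CArG box was in 1.62% of genes and in 1 of the 19 genes, Fhl2, at both its listed starts, 31 bases before the start printed above and 96 before the other. With 1 change allowed in its core of 6 A or T bases, which includes the exact box, it was in 9.78% of genes and in 5 of the 19, Acta2 (84 and 34 bases before its start), Col1a2, Fgl2, Fhl2 and Gsn. TATAAA was in 14.3% of genes and in Col3a1, Cyp26b1, Fhl2 and Igfbp6, 139 bases before the start of Cyp26b1. CCAAT was in 37.5% of genes and 6 of the 19, GGAATG, the TEAD motif, in 14.4% and 6, and TGANTCA, the AP-1 motif, in 7.82% and 3. A match describes letters in this window and not a bound site.

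Of 12 fibrillar and interstitial matrix genes outside the gate, 9 were at least 4-fold higher than in the other barcodes in every library, and WT, KO and KI members held them at 2250, 1890 and 4448 CPM, beside 17.8, 25.5 and 36.0 CPM elsewhere. Sparc, a collagen-binding glycoprotein, gave 45, 172 and 207 UMIs, and Col1a1 16, 57 and 65. Fbn1 (fibrillin-1, the core of microfibrils) gave 11, 17 and 40 UMIs and Col6a1 12, 18 and 37. Eln (elastin) was uneven, with 1, 6 and 57 UMIs, of which 39 lay in a single KI member.

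Basement membrane genes, which serve the tubule wall, followed the same pattern, with 11 of 13 at least 4-fold higher in every library. Members held them at 3907, 3056 and 5701 CPM, and they reached at most 44.0 CPM in the other barcodes. Lama2, the laminin alpha chain of muscle and mesenchyme, was found in 96 of 105 members with 73, 201 and 243 UMIs. The laminin chains Lamb2 and Lamb1 gave 150 and 117 UMIs in all, the collagen IV chains Col4a1 and Col4a2 148 and 101, and Nid1 (nidogen, which links laminin to collagen IV) 5, 24 and 48 UMIs across the libraries. Sertoli-gated cells, the other source of this membrane, held 17.0, 24.0 and 39.9 CPM of the same list. They also held elongating spermatid markers at 46461, 9428 and 26920 CPM, beside Sertoli markers at 3191, 2993 and 2359 CPM, so every CPM given for them is a share of a total with much germ cell RNA.

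Small proteoglycans and matricellular proteins gave 3623, 2665 and 3927 CPM, and 9 of their 17 genes were at least 4-fold higher everywhere. Sparcl1, with 29, 133 and 76 UMIs, and Ogn (mimecan), with 33, 90 and 65, were each found in over 70 members, in 83 and 74. Lum (lumican), a proteoglycan common in fibroblasts of other organs, was seen in KI alone, with 10 UMIs, 7 of them in 1 cell. Proteases and their inhibitors summed to 6560, 8417 and 8084 CPM. Cst3 (cystatin C) was found in 101 members with 101, 742 and 291 UMIs, Serping1 in 90 with 39, 139 and 185, and Timp2, an inhibitor of metalloproteinases, in 87 with 28, 123 and 126.

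**Figure D2:**
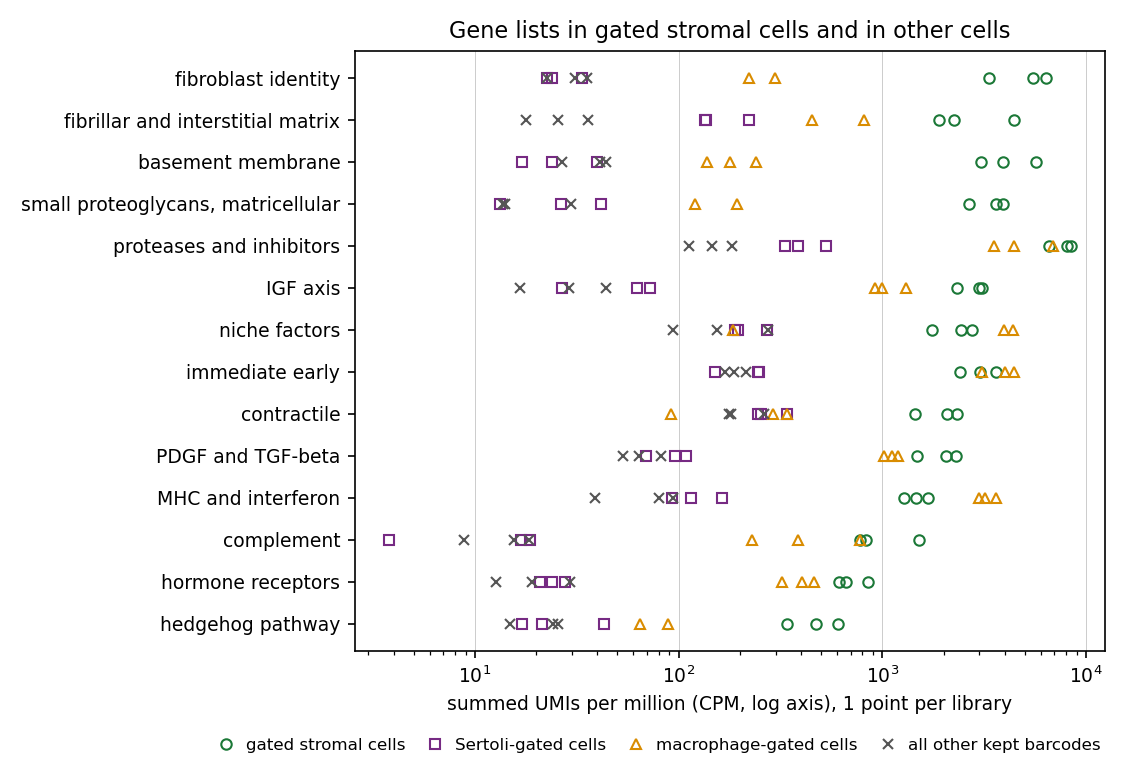
Summed CPM (log axis) of 14 gene lists, 1 point per library, in gated stromal cells (circles), Sertoli-gated cells (squares), macrophage-gated cells (triangles) and all other kept barcodes (crosses); libraries at 0 are not drawn. The stromal circles lie to the right of the other symbols for fibroblast identity, matrix, basement membrane and hedgehog lists, whereas macrophage-gated cells overlap or exceed them for niche factors, immediate early and MHC lists, although in KO and KI those also carry Leydig markers at 4561 and 3116 CPM.

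Of 15 genes that mark mesenchymal cells, 9 were at least 4-fold higher in every library, and Nr2f1, Dpp4 and Thy1 gave no UMI. Gsn gave 126, 245 and 360 UMIs in 91 members and Pdgfra 35, 89 and 92 in 72. Nr2f2 (COUP-TFII, a nuclear receptor of interstitial progenitors) gave 22, 53 and 80 UMIs in 64 members and Tcf21, a transcription factor of gonadal mesenchyme, 11, 38 and 17 in 43. Cd34 was found in 46 members and Ly6a (Sca-1) in 30. Pdgfrb, the beta receptor shared with pericytes, gave only 12 UMIs in 10 members. The pericyte list of 8 genes summed to 18 UMIs and no member passed a pericyte or endothelial gate, although the endothelial cadherin Cdh5 gave 27 of the 41 UMIs of its list, in 19 members.

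Contractile genes other than the gate pair were present at low counts. Cald1 (caldesmon, an actin-binding regulator found in smooth muscle and fibroblasts) gave 39, 83 and 107 UMIs in 65 members, Tpm1 (tropomyosin) 15, 43 and 47 in 53, Csrp1, a LIM protein of smooth muscle, 6, 18 and 30 in 37, and Myl9, the myosin light chain, 7, 15 and 19 in 27. Lmod1 and Des, which are more restricted to muscle, gave 29 and 18 UMIs. Of the 15 contractile genes 8 were at least 4-fold higher in every library, and the list summed to 2084, 1449 and 2321 CPM, against 264, 180 and 178 CPM in the other barcodes, where Actg2 alone stood at 103 CPM and Pln at 57.1. Actg2 and Pln were not higher in members, with 17 and 11 UMIs and pooled folds of 0.528 and 0.620.

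Growth factor genes marked out the signals that members could send and receive. Igf1 (chr10:87858265-87937042), insulin-like growth factor 1, gave 40, 165 and 140 UMIs in 65 members, its receptor Igf1r 112 UMIs, and the binding proteins Igfbp7 and Igfbp4 378 and 71, besides Igfbp6 of the gate. Pooled over the libraries, Igf1 stood at 1098 CPM in members, 499 in macrophage-gated and 4.66 in Sertoli-gated cells. Kitl, the stem cell factor that germ cells read through Kit, gave 8, 38 and 53 UMIs and stood at 315 CPM, against 14.0 in Sertoli-gated cells with their spermatid transcripts. Csf1, the macrophage growth factor, gave 0, 15 and 14 UMIs, while its receptor Csf1r gave 1 UMI in members and stood at 601 CPM in macrophage-gated cells. Cxcl12, a chemokine of stromal niches, gave 3, 30 and 20 UMIs, and its receptor Cxcr4 none. Gdnf, which maintains spermatogonial stem cells, gave 0 of the 314267 UMIs of members, which allows up to 9.55 CPM.

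Receptors for the tubule's ligands were on the stromal side. Ptch1, the Hedgehog receptor and a target of the pathway, gave 9, 20 and 37 UMIs and 210 CPM in members, against 2.07 CPM in Sertoli-gated cells, which held the ligand Dhh at 18.6 CPM and members at 6.36. The effectors Smo, Gli2 and Gli1 gave 23, 15 and 13 UMIs. Pdgfra stood at 687 CPM in members and 1.55 in Sertoli-gated cells, whereas the ligand Pdgfa was thin in both, with 5 and 15 UMIs. Tgfbr3, the co-receptor betaglycan, gave 758, 756 and 768 CPM. The estrogen receptor Esr1 gave 10, 36 and 19 UMIs in 42 members and the glucocorticoid receptor Nr3c1 6, 24 and 25 in 40.

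Retinoid genes, looked at after Cyp26b1 had been seen to lead, split between synthesis, breakdown and storage. Aldh1a1, which makes retinoic acid, gave 62, 244 and 212 UMIs in 87 members. Lrat and Stra6, which store and import retinol, gave 1 UMI each, Crabp2, a carrier of retinoic acid, 1, and Crabp1, Rarb and Cyp26a1 none. Of 7 complement genes, 5 were at least 4-fold higher in every library. The proteases C1s1 and C1ra gave 94 and 35 UMIs, and C3, the central component, 2, 15 and 43 across WT, KO and KI.

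Immediate early genes, which dissociation is known to induce, were present in most members and gave 3008, 2400 and 3627 CPM, beside 4430, 4017 and 3080 CPM in macrophage-gated cells. Junb gave 11, 46 and 62 UMIs, Fos 10, 47 and 39, Fosb 14, 34 and 35 and Egr1 14, 31 and 33. Their part in the other values was not tested. Genes of antigen presentation and interferon response gave 1468, 1273 and 1677 CPM, led by Ifitm3 with 35, 101 and 88 UMIs and B2m with 9, 31 and 31, while macrophage-gated cells held 2999, 3603 and 3187 CPM.

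Transcripts of other testis cells were found in members, unevenly between libraries. The 8 Leydig markers (steroid enzymes, Insl3 and Lhcgr) gave 1, 209 and 9 UMIs, and 205 of the 209 lay in 4 KO members that also passed a Leydig gate of the same form. These 4 held 3628 to 8609 UMIs, 11 to 31 gate UMIs and 12 to 90 Leydig UMIs each, and 3 of them held all 101 UMIs of Lcn2 in KO. The 8 Sertoli markers gave 6, 38 and 35 UMIs, and 1, 4 and 1 members passed a Sertoli gate. Spermatid markers made up a median of 0.801%, 0.334% and 0.152% of a member's UMIs, below the 5.93%, 2.76% and 2.68% of barcodes under 100 UMIs. A WT member with 339 Prm2 UMIs held most of the 510 in that library. UMIs of the 7 macrophage gate genes were in 1 member, a KI cell with 14, and those of 7 further macrophage genes in 2 KO members with 1 each and in 1 KI member, and erythroid genes in none, while the lymphoid list gave 1 UMI. Spermatocyte markers gave 9, 30 and 5 UMIs, and 1, 2 and 0 members passed that gate.

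**Figure D3:**
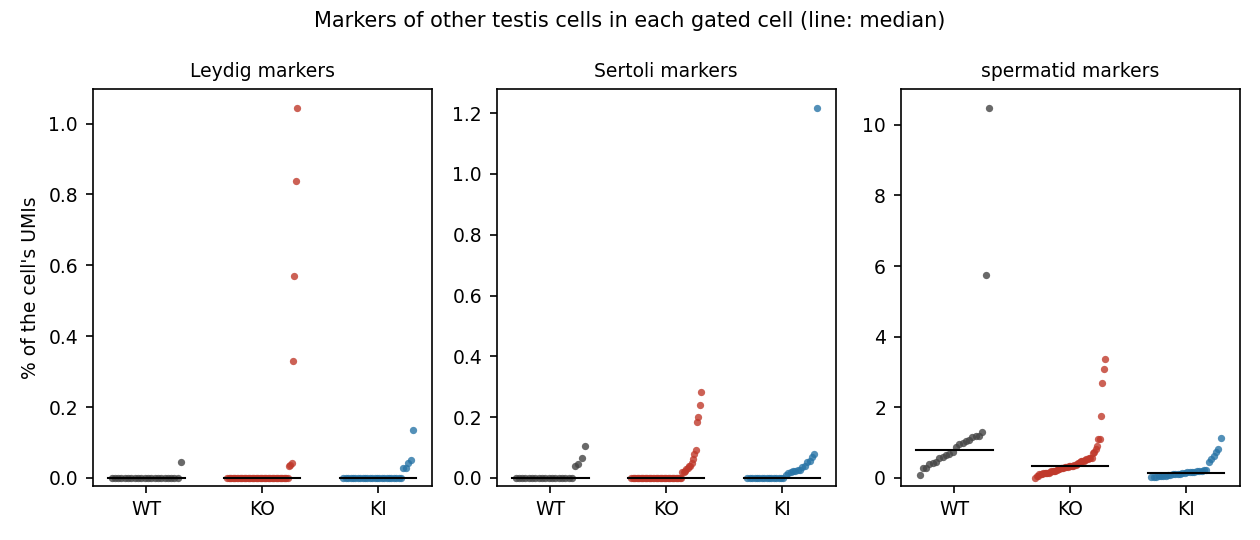
Share of each gated cell's UMIs (percent) from Leydig, Sertoli and spermatid markers, 1 point per cell and a line at the median of WT, KO and KI. The 4 KO cells that pass the Leydig gate and the KI cell with 18 Sertoli UMIs stand above the rest, and spermatid shares are highest in WT.

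Members rich in Dcn tended to hold less Cyp26b1, and Cyp26b1 varied together with Fhl2. Correlations were taken across the 105 cells, over 207 genes, on the deviation of each count from the mean of its library at the cell's depth, and are a description of cells that share libraries, depth and free RNA. Dcn went with Apoe (a lipid carrier, r = 0.59, and 0.57 without the KI member that held 14 macrophage UMIs and 89 of Apoe), Adamts5 (0.47) and Igf1 (0.45), and ran against Defb19, a beta-defensin gene (-0.37), Aldh1a1 (-0.34), Cyp26b1 (-0.33) and Ctgf (-0.32). The correlation of Dcn with Fhl2 was only -0.16. Defb19 stood at 3248, 2263 and 1692 CPM in Sertoli-gated cells against 308, 769 and 274 in members, and its correlation with Dcn was -0.38 without the members that passed a Sertoli gate and -0.35 without the Leydig-gated ones. Fhl2 and Cyp26b1 went together (0.59), Fhl2 with Col4a4 (0.47) and Cyp26b1 with Itgbl1, an integrin-like secreted protein (0.53). Igfbp6 had its own company, led by Pltp, a lipid transfer protein (0.55), and Mgp had none above 0.34. The genes followed were picked after the correlations of further genes had been seen.

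Split by whether Fhl2 and Cyp26b1 together gave more UMIs than Dcn, a split chosen after these values were seen, 34 members (8 in WT, 14 in KO and 12 in KI) lay on the Fhl2 side. The other 71, of which 63 had more Dcn and 8 equal counts, are called the Dcn side. Col4a4 and Col4a3, collagen IV chains of specialised basement membranes, stood at 1373 and 759 CPM on the Fhl2 side and 417 and 170 CPM on the Dcn side. Lama2 stood at 2465 against 1284 CPM, Ctgf at 1102 against 206 and Ptch1 at 354 against 147. Igf1 ran the other way, at 250 against 1472 CPM, as did Apoe, at 1186 against 4644. Within each library these 7 genes kept their side except Lama2 in WT, at 1611 against 1811 CPM. For Ptch1 in KO the values were 150 and 120 CPM, from 5 and 15 UMIs. Col4a4, Lama2, Ctgf, Igf1 and Apoe had been seen to correlate with the splitting genes in these same cells. Their sides were thus largely set in advance, and the values within libraries are a description and no separate check. Among contractile genes, Cald1 stood at 1134 CPM on the Fhl2 side against 550 on the Dcn side, and Tpm1 at 458 against 280. Myl9 was at 270 against 68.8 CPM and Lmod1 at 166 against 59.6. Acta2, at 41.6 against 41.3 CPM, and Des, at 52.0 against 59.6, were not higher to this degree. In WT, Cald1, Tpm1 and Lmod1 ran the other way. The sides were not exclusive, since 79 members held UMIs of both, 18 of Dcn only, 6 of Fhl2 or Cyp26b1 only and 2 of neither.

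**Figure D4:**
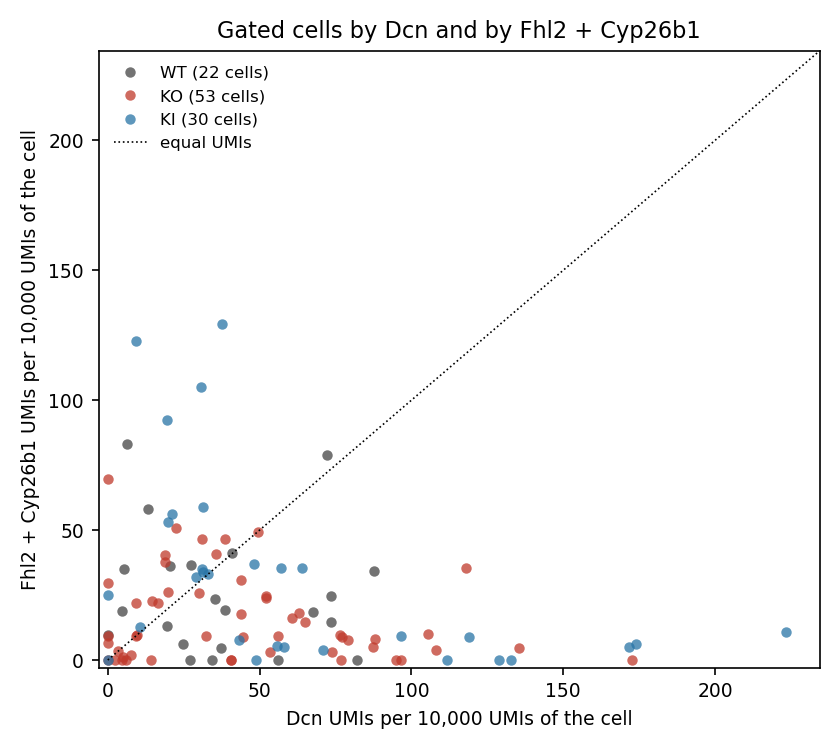
Dcn against Fhl2 plus Cyp26b1, both in UMIs per 10000 UMIs of the cell, with 1 point per gated cell coloured by library and a dotted line where both are equal. Members spread along both axes in all 3 libraries, with few cells high on both.

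A smaller set of members carried C7, a terminal complement component, and a few of these were rich in fibrillar collagen. Col3a1 went with Col1a1 (r = 0.69), C7 (0.69) and Csmd1, a large membrane protein with complement control domains (0.58). C7 (chr15:4988762-5063740) reached 2 UMIs, a limit set after the values were seen, in 1 of 22 WT members (4.55%, 0.115% to 22.8%), 9 of 53 KO (17.0%, 8.07% to 29.8%) and 10 of 30 KI (33.3%, 17.3% to 52.8%). Those 20 cells held 69 of the 105 Csmd1 UMIs, but in only 6 of the 20, and 30 of the 105 lay in 1 KO member. The 20 were mostly KO and KI cells, whereas the other 85 held 21 WT, 44 KO and 20 KI cells. Against those 85, they held Col3a1 at 1922 versus 584 CPM, Col1a1 at 791 versus 320, Sparc at 2525 versus 950, Eln at 628 versus 59.7 and C3 at 477 versus 93.8, whereas Fhl2 was at 553 versus 1385 and Cyp26b1 at 502 versus 1040. Within KO and within KI these 7 genes lay on the same side, with Col3a1 at 1155 versus 533 and 2453 versus 828 CPM and Fhl2 at 160 versus 823 and 640 versus 2544. The single WT cell of 1564 UMIs ran the other way for Sparc, at 639 versus 1082 CPM, Fhl2, at 5754 versus 1254, and Cyp26b1, at 2558 versus 1156, and held no Eln or C3. These 7 were named from a longer set of genes, and not all of that set kept a side. In KO, Fbn1 stood at 32.1 versus 125 CPM and Col5a2 at 0 versus 47.0, whereas both were higher with C7 in KI. Igf1 stood at 802 versus 1098 CPM in KO and 1962 versus 722.5 in KI. The KO values of Eln rested on 2 and 4 UMIs. The median depth of the 20 was 1564, 2094 and 3869 UMIs in the 3 libraries against 1944, 2257.5 and 3580.5 for the rest, and the Eln value rests largely on the KI member with 39 UMIs. Of their 153 Col3a1 UMIs, KI members of 5345 and 4503 UMIs held 39 and 40, and a KO member of 2094 UMIs held 19. The Col3a1 gap thus rests largely on few cells. Col3a1 is also a gate gene and was seen to go with C7, so its level here is a description. In KO, 59 of the 75 C7 UMIs lay outside the Leydig-gated members, which held at most 2 Fhl2 UMIs each. C7 and Csmd1 were among the genes with the most uneven counts over members, with a variance between cells 13.6 and 17.8 times that of Poisson sampling at each cell's depth, against a median of 1.90 over 414 genes.

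Between genotypes, levels in members were compared as log2 ratios of summed CPM with 10 CPM added, in 990 genes that had at least 30 UMIs and at least 4 times the level of barcodes under 100 UMIs. In KO against WT, 72 genes (7.27%) were at least 2-fold higher and 121 (12.2%) at least 2-fold lower. In KI against WT, 165 (16.7%) were higher and 13 (1.31%) lower. The median over all 990 genes was -0.22 in KO and 0.29 in KI, and the counts are read against this shift. Scaling by TMM moved the medians to 0.06 and 0.50 and the split to 120 higher and 49 lower in KO and 241 and 7 in KI, and the median of ratios gave 113 and 57 in KO and 210 and 8 in KI. Without the KO member of 20002 UMIs, left out after its depth was seen, 96 were higher and 83 lower in KO. Without the 20 members with at least 2 C7 UMIs, left out after those were seen, 27 were higher and 90 lower in KO and 73 and 12 in KI. Over all 2323 genes with at least 30 UMIs, with no screen for free RNA, 247 were higher and 202 lower in KO and 267 and 312 in KI. The direction of the KO split thus depended on the scaling, this member and the filter, that of the KI split on the filter, and the counts of called genes include counting error of genes with few UMIs in the shallow WT members. KO and KI were set against the same WT members, so their values are given side by side only. Spermatid UMIs, a median of 0.801% of each WT member, 0.334% of each KO and 0.152% of each KI member, moved with genotype. Without members that held 1% or more of them, left out after these shares were seen, the counts were 133 higher and 83 lower in KO, which turned its direction, and 208 and 24 in KI.

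By gene list, KI members stood above WT for fibrillar matrix (ratio of summed CPM 1.98, 1.58 to 2.49), complement (1.83, 1.27 to 2.72) and basement membrane (1.46, 1.23 to 1.74), where KO stood at 0.840 (0.665 to 1.07), 0.943 (0.643 to 1.41) and 0.782 (0.654 to 0.939). In KI, 4 of the 8 fibrillar matrix genes tested were at least 2-fold higher and 0 lower, with a list median log2 ratio of 0.93 beside 0.29 over all genes tested. The KI ratio of niche factors was 1.58 (1.22 to 2.06), with Kitl and Cxcl12 past 2-fold of 3 genes tested. Cxcl12 rested on 3 UMIs in WT and 20 in KI. Of all 990 genes tested, 16.7% were at least 2-fold higher in KI. The 4 matrix genes were Eln (interval of the ratio 3.66 to 853), Col5a1 (1.39 to 353), Col5a2 (1.32 to 45.2) and Col6a2 (0.768 to 8.87). Without the KI member richest in Eln, left out after its counts were seen, the list ratios were 1.63 (1.30 to 2.06), 1.66 (1.15 to 2.48) and 1.46 (1.23 to 1.74), and the gene intervals 1.11 to 293 for Eln, 1.04 to 278 for Col5a1 and 0.789 to 29.7 for Col5a2. Members with at least 2 C7 UMIs, 10 of 30 in KI and 1 of 22 in WT, were chosen by a gene that goes with Col3a1 and Col1a1, so leaving them out also removes cells rich in fibrillar collagen. Without them in all libraries, the KI log2 ratio went from 0.98 to 0.07 for fibrillar matrix and from 0.87 to 0.41 for complement, both with intervals that included equal levels, and from 0.54 to 0.71 for basement membrane and from 0.66 to 0.65 for niche factors, which lay clear of it. In KO the lowest ratio among the 14 plotted lists was that of fibroblast identity genes, at 0.607 (0.520 to 0.712) with 0 of 8 tested genes past 2-fold, against 1.15 (0.989 to 1.34) in KI. Gsn alone gave 126 of the 233 UMIs of this list in WT and 245 of 532 in KO, at a ratio of 0.517 (0.416 to 0.647). Under TMM the KO log2 ratio of this list went from -0.72 to -0.41 and that of basement membrane from -0.35 to -0.05. The KO log2 ratios of fibrillar matrix, complement and MHC changed sign with the scaling, from -0.25, -0.09 and -0.21 to 0.05, 0.22 and 0.10 under TMM and 0.02, 0.18 and 0.06 with the median of ratios.

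**Figure D5:**
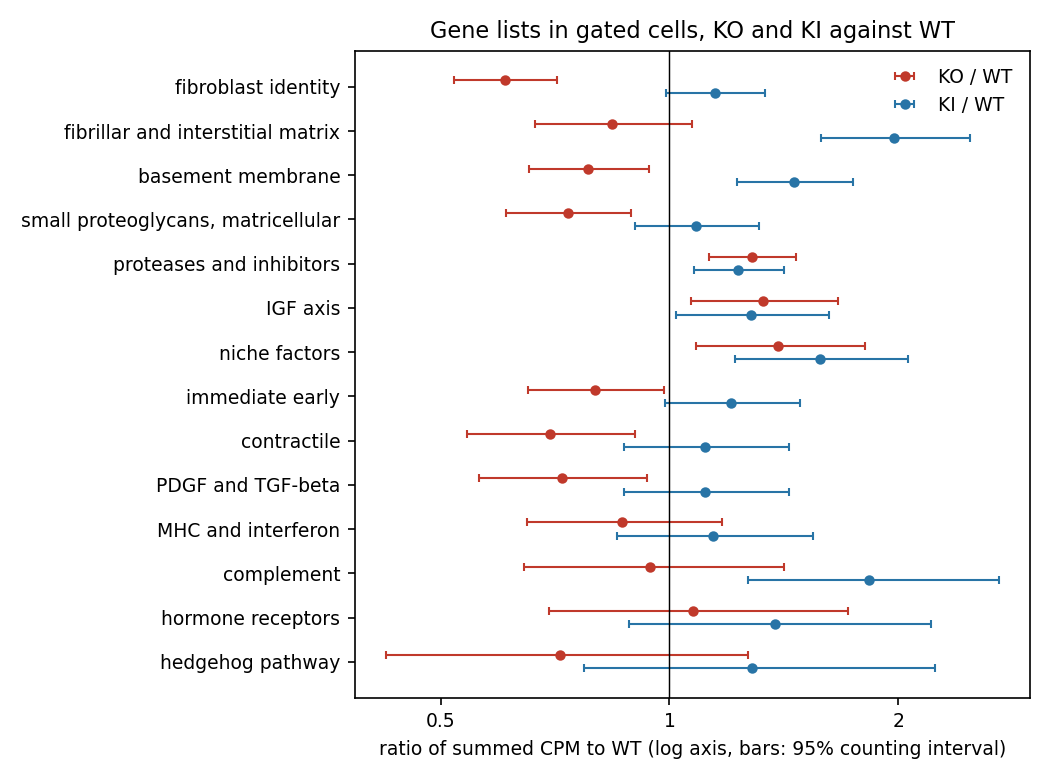
Ratio of summed CPM of 14 gene lists in gated cells of KO (red) and KI (blue) to WT, on a log axis with exact 95% counting intervals; the vertical line marks equal levels. KI lies above 1 for all 14 lists, with an interval that includes 1 for 8 of them and a median over all genes tested of 0.29 (log2), and is highest for fibrillar matrix (1.98) and complement (1.83), while KO is lowest for fibroblast identity (0.607).

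The KO ratios above 1 for proteases (1.28, 1.13 to 1.47) and niche factors (1.39, 1.08 to 1.81) moved with the Leydig-gated cells. Without those 4 members, left out after their Leydig UMIs were seen, the log2 ratios were -0.17 and -0.10. In KO, Cst3 stood at 4675 CPM with them and 2113 without, Ptgds, which makes prostaglandin D, at 309 and 37.9, and Lcn2 at 636 and 0, against 2392, 23.7 and 0 CPM in WT. The IGF axis, at 1.33 (1.07 to 1.67) in KO and 1.28 (1.02 to 1.62) in KI, included Igfbp7, with ratio intervals of 1.28 to 2.82 and 1.04 to 2.38, and Igf1, at 1235 CPM in KI against 947 in WT (interval 0.912 to 1.90). Without the members with C7, the log2 ratio of the list in KI went from 0.36 to 0.01 and Igf1 stood at 722.5 CPM in KI against 984 in WT. Hormone receptor, hedgehog and MHC sums had intervals that included 1 in both.

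Some list genes, chosen after their values were seen, had counting intervals clear of equal levels. Serpinf1 (PEDF, an inhibitor of angiogenesis) was higher in both, with 3, 48 and 40 UMIs in WT, KO and KI, log2 ratios of 1.95 and 2.16 and ratio intervals of 1.37 to 21.4 and 1.58 to 25.1. In KI, C3 was at 379 against 47.4 CPM (interval of the ratio 2.09 to 68.3), Nid1 at 424 against 118 CPM (1.43 to 11.5), Kitl at 468 against 189 CPM (1.17 to 6.01) and Junb at 547 against 260 CPM (1.10 to 4.42). Without members of 2 or more C7 UMIs, C3 stood at 211 CPM in KI, from 14 UMIs, against 49.2 in WT, from 2. Nid1 then stood at 512 against 123 CPM and Kitl at 512 against 197. Junb alone was not followed in that setting, but the KI log2 ratio of the immediate early list that holds it went from 0.27 to -0.15. In KO, Fbn1 was at 107 against 260 CPM (0.182 to 0.971) and Col6a1 at 113 against 284 CPM (0.182 to 0.908). Both upper limits lie close to 1 and hold for unscaled CPM only. The TMM factors, 1.13 for WT and 0.912 for KO, raise every KO ratio, so neither gene is clear of equal levels whatever the scaling. None of these differences has a replicate.

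Gate genes helped to choose the members, so their levels by genotype are a description. Igfbp6 was past 2-fold in KO, at 1380 CPM against 2913 in WT (log2 -1.07), and Col3a1 in KI, at 1500 against 379 CPM (log2 1.96) and 1213 CPM without the member richest in Eln. Fhl2 (log2 -1.03), Cyp26b1 (-1.11), Ebf1 (-1.05) and Ltbp4 (-1.11) were also past 2-fold lower in KO. Without the Leydig-gated members they stood at -0.79, -0.97, -0.93 and -0.88, and Igfbp6 at -0.96, so each of the 5 no longer passed. Without the deepest KO member, of 20002 UMIs, all 5 stood between -0.83 and -0.98 as well. Under TMM they stood between -0.72 and -0.81, so the call rested on the scaling and on a few members, while the sign did not change in any of these settings.

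The genes furthest from WT in 1 direction in both mutants, ranked by the smaller of both log2 ratios, were thin in WT. Antxr2, a receptor for collagen VI, gave 0, 20 and 16 UMIs, which makes it at least 1.77-fold higher in KO and 1.99-fold higher in KI against a floor of 3 UMIs in WT. These bounds set only the WT count to the floor and leave out the counting error of KO and KI. The lysosomal protease gene Ctsd gave 0, 17 and 16 UMIs (at least 1.51-fold and 1.99-fold higher), the secreted glycoprotein gene Creg1 0, 19 and 11 (at least 1.68-fold and 1.37-fold) and the transcription factor gene Tcf7l1 0, 13 and 19 (at least 1.15-fold and 2.36-fold). Csmd1 (chr8:15892537-17535586) gave 1, 53 and 51 UMIs, with ratio intervals of 2.42 to 567 and 3.26 to 765. It lay in 16 members, 8 of them in KO and 7 in KI, and 1 KO member held 30 of the 53 UMIs. The intervals take no account of such spread between cells. At the low end were the Wnt ligand gene Wnt5b, with 17, 12 and 15 UMIs, CT025619.1, a feature named here only by the files, with 20, 26 and 16, the receptor gene Calcrl, with 11, 16 and 11, Mamld1, with 8, 13 and 9, and Hdgfl3, with 9, 12 and 11. With 42227 UMIs in all, WT members allow up to 71.0 CPM for a gene at 0. With counting error on both sides, the lower limits of the ratio were 0.811 for Tcf7l1 in KO and 0.935 for Creg1 in KI, so both intervals included 1, as did those of Mamld1 in KO and KI and of Hdgfl3 in KI. Under TMM, Mamld1 stood at log2 -0.83 in KO and -0.96 in KI and Hdgfl3 at -0.86 in KI, no longer past 2-fold, and Calcrl in KO lay just inside that limit.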

How the data were processed

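The authors aligned reads to mm10 with Cell Ranger and deposited raw UMI counts of each gene and barcode, with no cell calling, normalization or annotation of cells. Version 2.1.1 is given in the processing notes and 4 in the file header, and v2 chemistry in the labels beside 6794880 listed barcodes. The labels and the methods name different sequencers. For the mice, the methods give a range of ages that includes the 8 weeks of the labels. Strand settings are not given in the sources used here.

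Members were gated in each library as stated in the report, and no library fell under the 20 cells that would have called for pooling. UMIs were summed over members and scaled to CPM (a total of 1000000), with 10 CPM added for log2 ratios between genotypes and 1 CPM for those against other kept barcodes. Called meant 2-fold and 4-fold. Intervals are exact Poisson, Clopper-Pearson or conditional binomial at 95%, and a gene at 0 was set to a floor of 3 UMIs per library. UMIs count captured 3′ ends and were not divided by gene length, so levels were compared within a gene or list. Sertoli, Leydig and macrophage gates used the same 3 UMIs and 0.1%. The computation of the ratios was tested on simulated Poisson counts with 4-fold changes planted in genes of higher counts. Those counts had no extra spread between cells, so the test cannot speak for uneven genes or genes with few UMIs.

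TMM factors came from edgeR 4.0.16 in R 4.3.3, and all else from Python 3.11.15 with pandas 2.3.3, matplotlib 3.10.9, scipy 1.17.1 and numpy 2.4.6. GENCODE M21 (GRCm38) gave the gene positions. The text names the gate and macrophage genes, Ddx25, the genes of highest level from each list, the 20 of largest fold against other barcodes and the 5 highest and 5 lowest in both mutants by the smaller log2 ratio, and says where others were added. The members and the 28 lists of 261 genes were chosen with earlier results of these data known. Alternatives covered thresholds, scaling, added CPM, filters on genes and left-out members.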

Additional observations from a re-analysis of the deposited data

How the results depend on the processing

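No paired analysis was possible because each genotype had 1 library and all carry the number 1. Of the alternatives for counts of members and genes, 62 stayed within 1.5 times the reported count and 33 did not. A minimum of 2000 UMIs left 10 WT members, and leaving out members with 1% or more spermatid UMIs left 14. Calling cells by UMI total for 3000 expected cells, at limits of 8187, 8847 and 14178 UMIs, left 0 WT, 1 KO and 0 KI members. Against other barcodes, adding 10 CPM gave 925 genes higher and 116 lower, a minimum of 30 UMIs 748 and 3, and a gate of 10 UMIs and 0.5% gave 2172 lower. In KO against WT the counts of higher and lower genes were 120 and 49 with TMM, 113 and 57 with the median of ratios, 1031 and 988 with no filter on low counts, and 247 and 202 with all genes of 30 or more UMIs, where free RNA was not screened. The higher count was 47 with the stricter gate, 41 without Leydig-gated members, 27 without members of 2 or more C7 UMIs and 133 without members rich in spermatid UMIs. In KI the counts were 1440 and 509 with no filter and 267 and 312 with all genes of 30 or more UMIs, and the higher count was 83 with the stricter gate and 73 without members of 2 or more C7 UMIs. The lower count was 7 with TMM, 8 with the median of ratios, 36 with the mean of each cell's CPM, 7 without Leydig-gated members and 24 without members rich in spermatid UMIs. The share of higher genes among those called in KO was 37.3% as reported, 71.0% with TMM, 66.5% with the median of ratios, 53.6% without the deepest member and 61.6% without members rich in spermatid UMIs. The KO log2 ratios of proteases and niche factors turned to -0.014 and -0.0079 with the stricter gate and to -0.17 and -0.10 without Leydig-gated members. The cause of these moves was not tested, apart from the gene filters, which change how many genes enter. Log2 ratios were followed this way for sums of lists and for the genes highest and lowest in both mutants by the smaller log2 ratio. Of these ratios, 499 stayed within the counting interval under an alternative. The sign changed in 25 of 525, all sums of lists. Apart from the 4 just given, those 25 had an interval that included 1 as reported. The genes gave 210 of the 525 values and were picked for large ratios in both mutants. Their unchanged signs were thus largely set in advance. Other genes named in the text were not part of this count. Leaving out the KI member richest in Eln, members with C7, the Leydig-gated members, those over 10000 UMIs and those rich in spermatid UMIs was added after seeing the data. Depth limits WT most, where 22 members gave 42227 UMIs and a gene under 71.0 CPM may give none.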

Other observations

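Malat1, a nuclear noncoding RNA, gave 8443 of the 314267 UMIs of members and was the most uneven gene between them, with a variance 64.3 times that of Poisson sampling. WT, KO and KI members held it at 31331, 27362 and 24506 CPM. One KO member alone held 980 Malat1 UMIs. Tshz2, a zinc finger factor, was found in 92 members with 119, 360 and 342 UMIs, and Slit3, a guidance ligand, in 90 with 81, 227 and 278. Egfr, the EGF receptor, gave 24, 50 and 69 UMIs in 64 members, and S100a6, a calcium-binding protein, 38, 56 and 156 in 59. Osr1, a transcription factor of lateral mesoderm, gave 4, 39 and 22 UMIs in 36 members. These genes were chosen after their values were seen.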
